A study of Mus musculus with 18 samples.

Results

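The 10 genes described here encode heat shock proteins and chaperones of the cytosol, the mitochondria and the endoplasmic reticulum (ER), and they were chosen by their symbols, Hspa1a, Hspa1b, Hspa8, Hsph1, Dnajb1, Hsp90aa1, Hsp90ab1, Hspb1, Hspd1 and Hspa5. Earlier results of these data were known when these genes and the related lists below were chosen. They are 10 of the 23951 genes in the expression table, and all 10 were among the 12751 genes that passed a filter of at least 1 FPKM in at least 3 libraries. FPKM is a count of fragments scaled to the length of the transcript and to the number of mapped reads, so levels can be compared between genes.

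RNA was sequenced from 18 libraries of cells sorted from ear skin of 6 mice, with 3 mice in each of 6 groups. The sort kept CD45-, CD49f-high epidermal cells and split them into CD34+ bulge hair follicle stem cells (HF-SCs) and CD34- basal keratinocytes (b-KCs). The psoriatic-like DKO* mice carried floxed JunB and c-Jun alleles, the K5-Cre-ERT transgene, which is driven by the keratin 5 promoter of basal epithelium, and the mT/mG reporter. From DKO* mice 814, 815 and 817, recombined mutant cells (GFP) and non-mutant cells (Tom) of both cell types were collected, so these 4 groups share their mice. Control mice 810, 825 and 828 (Co) carried the Cre transgene and the reporter with wild-type or heterozygous JunB and c-Jun and gave both cell types. Mutant and control mice alike received 4 daily injections of 2 mg tamoxifen at 8 weeks of age, and the DKO* mice were analysed at day 7. Males and females of a mixed background were used, and the labels do not say that the Co cells were split by fluorescence. Undissociated skin was not analysed here, so each level is that of cells after trypsin digestion and sorting.

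Heat shock proteins are chaperones that hold, fold or refold other proteins, and the inducible ones are switched on by the transcription factor Hsf1 when unfolded proteins accumulate. Hsp70 proteins work with J-domain (Hsp40) partners that deliver substrates and with Hsp110 proteins that exchange the nucleotide, Hsp90 proteins finish the folding of kinases and receptors, and small heat shock proteins hold unfolded proteins without using ATP. Hsp60 with its lid Hsp10 folds proteins inside mitochondria, and BiP is the Hsp70 of the ER. In skin, small heat shock proteins are known from differentiating keratinocytes, and enzymatic dissociation of a tissue is known to raise heat shock and immediate-early transcripts.

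The targeted genes were checked first. Jun had 835 to 1086 FPKM in the 6 Co libraries, 29.6 to 88.4 in the 6 GFP libraries and 163 to 614 in the 6 Tom libraries, and Junb had 436 to 772, 37.2 to 77.5 and 208 to 402 FPKM in the same order. The steps of low FPKM values implied 16560000 to 26320000 reads a library. Of 14 endothelial markers, 3 (Cdh5, Cldn5 and Kdr) passed the filter on low values only with Tom libraries, and of the other 11, 11 rose in HF-SC Tom against Co and 10 fell in HF-SC GFP. The summed level of the 14 was 943 to 2757 FPKM in HF-SC Tom, 96.4 to 160 in HF-SC Co and 2.22 to 47.7 in HF-SC GFP. In b-KCs it was 2.14 to 4.08 in Co, 1.84 to 7.51 in GFP and 6.21 to 12.6 in Tom, and Egfl7 alone of the 14 rose in both fractions. Of 8 bulge markers, 4 fell in GFP and 6 in Tom HF-SCs, and 1 in GFP and 4 in Tom b-KCs. Of 6 suprabasal keratinocyte markers, 3 rose in each HF-SC fraction, 2 others fell in HF-SC Tom, and 3 fell in each b-KC fraction. Of 12 leukocyte markers, 4 were tested, Cxcr2 and H2-Ab1 rose in all 4 DKO* populations, Cxcr2 was higher in GFP than in Tom HF-SCs, Itgam passed the filter only through DKO* HF-SC libraries and is not counted, and the summed level of the 10 in the table was 3.89 to 9.80 FPKM in the 6 Co libraries and 56.1 to 356.6 in the 12 DKO* libraries, although the sort was for CD45- cells. Of 6 basal keratinocyte markers, Col17a1 fell in all 4 populations, and Trp63 also fell in HF-SC Tom and b-KC GFP. Krt14 had a lower value in b-KC Tom that rests on 2 libraries listed at 0 and is not counted. Of 6 melanocyte markers, Mitf fell in all 4, and Dct rose in HF-SC GFP and was higher there than in HF-SC Tom, while Mlana and Tyrp1 passed the filter only through DKO* libraries and are not counted. Of 5 muscle and pericyte markers, 2 were tested, of which Tagln rose in HF-SC Tom and Acta2 passed the filter only through DKO* libraries. The part of these markers in the results below was not tested, and in sorted bulk RNA fewer cells of a type and less RNA per cell cannot be told apart. Krt15 is listed at 0 in 1 HF-SC Co library, and Krt14 is listed at 0 in 1 b-KC GFP and 2 b-KC Tom libraries, while both keratins exceeded 150 FPKM in every other library. None of the 10 chaperone genes was listed at 0 in any library.

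Differences were tested with limma on log2(FPKM + 1), on which changes of genes with low FPKM appear too small, and a gene was said to rise or fall where the Benjamini-Hochberg adjusted p over all 12751 genes was under 0.05. Against Co, Hspb1 and Dnajb1 fell and Hspd1 rose in all 4 DKO* populations. In HF-SC GFP, 2 of the 10 genes rose and 3 fell, where 18.5% of all genes rose and 20% fell. In HF-SC Tom, 2 rose and 2 fell, with 22.3% of all genes higher and 22.1% lower. In b-KC GFP, 3 rose and 2 fell, with 20.3% of all genes higher and 21.3% lower. In b-KC Tom, 1 rose and 2 fell, with 22.6% of all genes higher and 23.3% lower. The shares of the 10 genes that passed the test were thus close to those of all genes, and the genes went in both directions. The median log2 fold change of the 10 genes was 0.12 in GFP and -0.03 in Tom HF-SCs, and 0.14 in GFP and 0.07 in Tom b-KCs, beside medians of -0.05, -0.04, -0.03 and -0.02 over all genes tested. A stricter rule asked for an adjusted p under 0.01 and a change of 2 or more on the log2 scale, and by it Hspb1 fell in b-KC Tom and no other of the 10 genes passed in any comparison. Of all genes, 2.43% rose and 0.635% fell by that rule in HF-SC GFP, 3.61% and 0.478% in HF-SC Tom, and for b-KCs it was 1.29% and 0.588% with GFP, then 1.25% and 1.51% with Tom. The shares were 0.0941% higher and 1.88% lower for GFP against Tom among HF-SCs, 0.0471% and 0.0392% among b-KCs, 2.82% and 2.82% for HF-SC Co against b-KC Co, and 0.604% and 0.259% for GFP and 1.75% and 0.227% for Tom in the difference of the changes between the cell types. The GFP and Tom fractions of a cell type were compared with the same Co libraries, so these comparisons are not independent of each other.

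**Figure D1:**
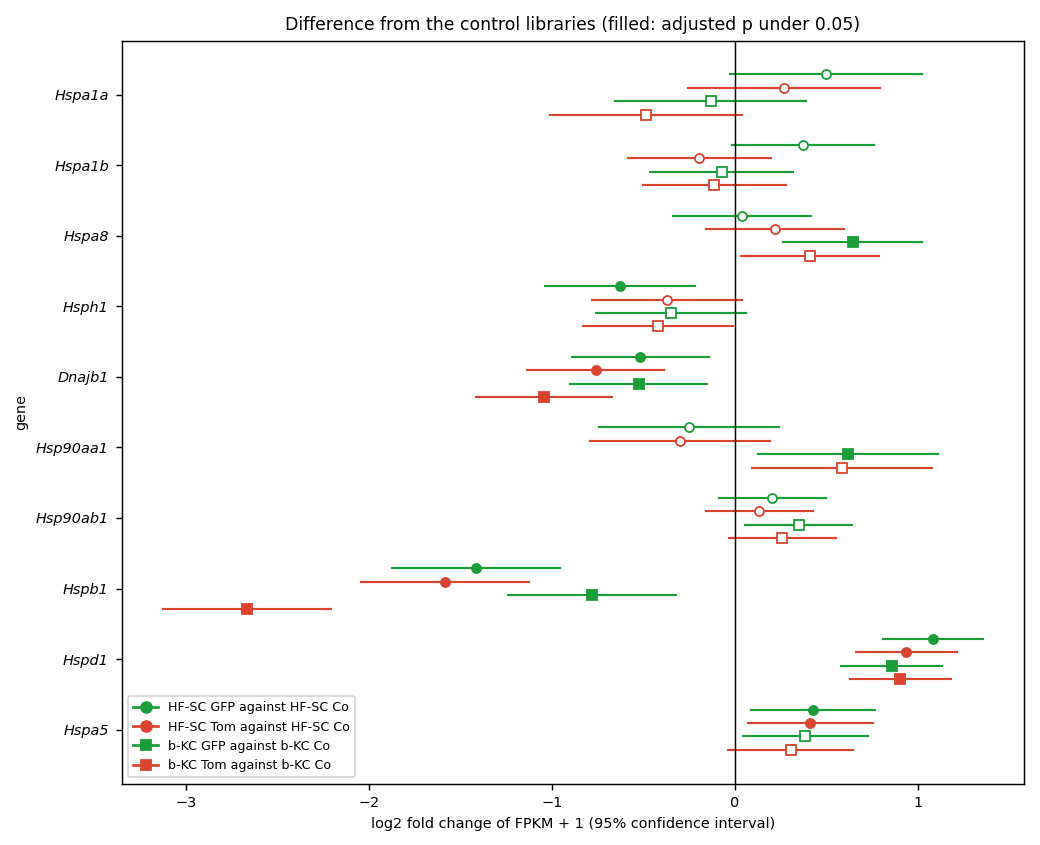
Log2 fold change of FPKM + 1 of each of the 10 genes (rows) against the Co libraries of the same cell type, with unadjusted 95% confidence intervals as lines, for HF-SCs (circles) and b-KCs (squares), GFP in green and Tom in red; filled symbols have an adjusted p under 0.05. Hspb1 and Dnajb1 lay below 0 and Hspd1 above 0 in all 4 comparisons, and Hspa1a and Hspa1b had open symbols throughout.

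In the control cells, Hspa8 had the highest level of the 10 genes and Hsph1 the lowest. Part of the sequence of several of these genes, Hspa8, Hspa1a and Hspa1b among them, occurs elsewhere in the genome. The order therefore also depends on how shared reads were assigned. In HF-SC Co the order of the mean FPKM (mean ± SD, n = 3) ran from Hspa8 (721 ± 32.7) through Hspb1 (580.2 ± 84.3), Hsp90ab1 (371 ± 34.7), Hspa5 (281 ± 34.1), Dnajb1 (165 ± 6.23), Hsp90aa1 (147 ± 39.1), Hspa1b (117 ± 4.03), Hspd1 (53.8 ± 3.83) and Hspa1a (25.4 ± 4.78) to Hsph1 (15.4 ± 1.18). The libraries of Hsp90aa1 overlapped with those of Dnajb1 above it and Hspa1b below it, and no other neighbours in that order overlapped. In b-KC Co, Hspa8 (749 ± 65.4) and Hsph1 (13.9 ± 0.854) again stood at the ends, and only Hsp90aa1 and Hspd1 overlapped. Between the control cell types, 1 of the 10 genes was higher in HF-SC Co and 2 were lower, where 24.6% of all genes were higher and 27.3% lower. Hsp90aa1 was higher in HF-SC Co, by 0.71 ± 0.23 (SE, adjusted p = 0.0184) on the log2 scale, and Hsp90ab1 and Hspd1 were lower, with log2 differences of -0.67 (adjusted p = 0.000826) and -0.58 (adjusted p = 0.0016). The difference in Hsp90aa1 missed the threshold without mouse 810 (0.50, adjusted p = 0.164) and without mouse 828 (0.78, adjusted p = 0.0564). When these libraries alone were fitted with mice as fixed blocks, Dnajb1, Hspa1a and Hspa1b were also lower in HF-SC Co, with limma adjusted p of 0.0106, 0.0264 and 0.0466. When mice entered the model of all libraries as random blocks, the adjusted p of Dnajb1 was 0.0118, and without mouse 817 it was 0.0038. With only the control groups in the fit and no block, Dnajb1 and Hspa1b had adjusted p of 0.0051 and 0.0389.

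**Figure D2:**
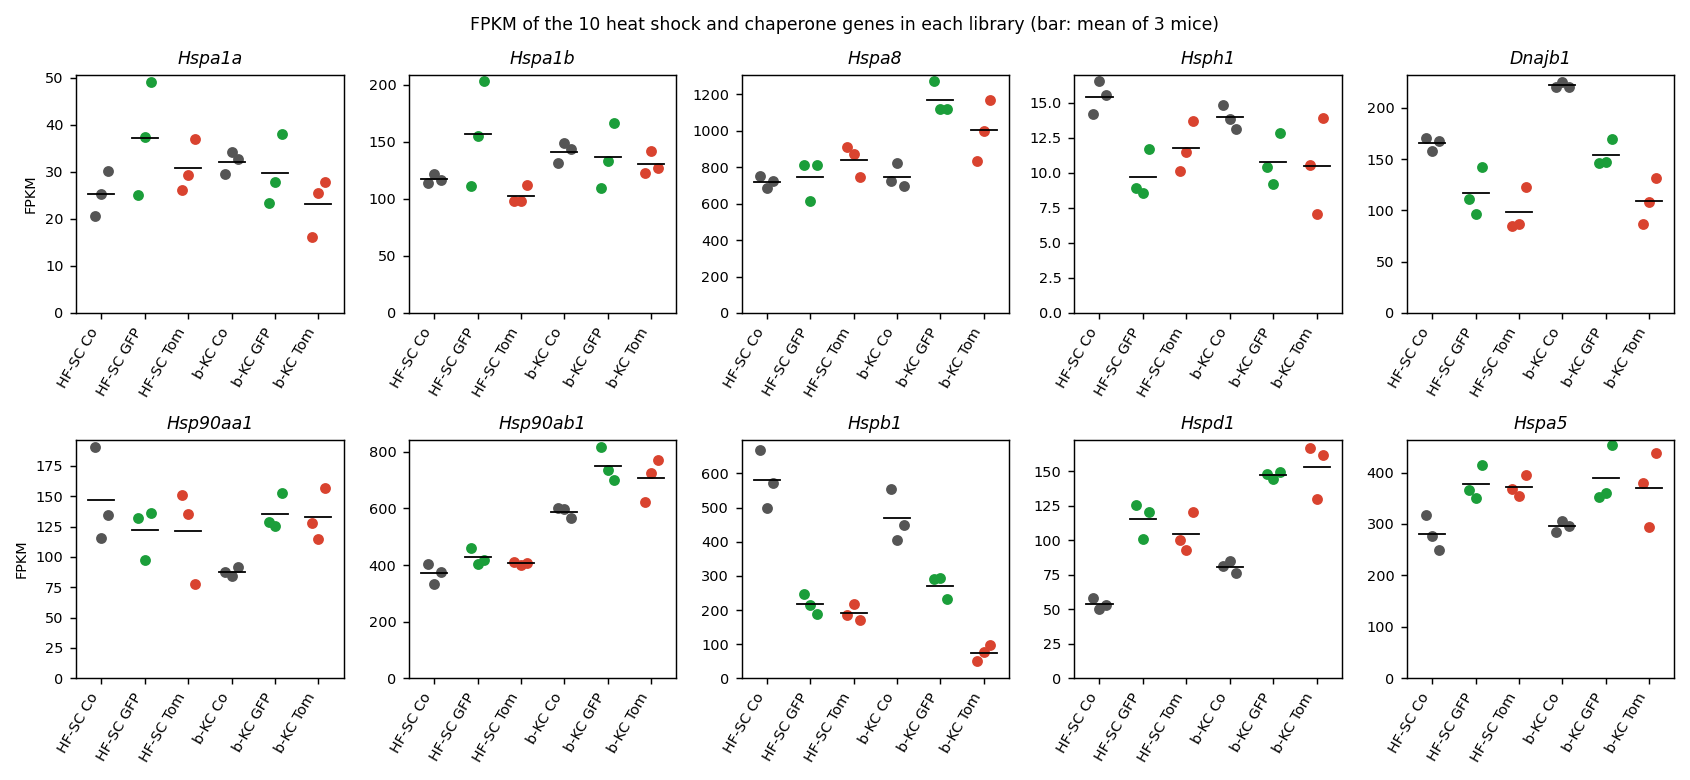
FPKM (linear axes from 0) of the 10 genes in each of the 18 libraries, 1 panel a gene, with Co in grey, GFP in green and Tom in red, points from left to right in the order of the mouse numbers and bars at the mean of 3 mice. The Co libraries of Hspb1 stood above and those of Hspd1 below all other libraries of their cell type.

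Hspa1a and Hspa1b encode the inducible cytosolic Hsp70 and are the classic readout of a heat shock response. They lie next to each other on the minus strand (Hspa1a at chromosome 17, 35106144 to 35109069, Hspa1b at chromosome 17, 35093381 to 35096183, NCBIM37), their coding sequences are 99.4% identical over 1929 aligned bases, and 60.7% of the 51-base stretches of the Hspa1a transcript and 62.0% of those of Hspa1b occur elsewhere in the genome, so that reads could be split between them and each level alone is uncertain. Hspa1a also shares 2213 bases with the annotated gene Gm20481. Their promoters are shown because the members of this pair share 247 of 250 bases upstream of the start. The stretches below run from 140 to 71 bases before the start site (RefSeq, GRCm38.p6), and capitals mark the letters GAANNTTC, an inverted pair of heat shock factor units that was searched on both strands and occurs in 7.86% of 32851 promoters:
Hspa1a (chr17:34972227-34972296, - strand): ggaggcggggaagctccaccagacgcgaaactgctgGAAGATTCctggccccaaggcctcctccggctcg
Hspa1b (chr17:34959309-34959378, - strand): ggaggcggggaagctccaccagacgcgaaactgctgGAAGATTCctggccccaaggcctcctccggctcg
The printed stretches were the same in both genes, with the pair at 104 bases before each start site.

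Neither gene passed the test in any comparison of a DKO* population with Co. Hspa1b had 114, 122 and 117 FPKM in HF-SC Co beside 112, 155 and 204 in the GFP and 97.8, 97.9 and 112 in the Tom fraction. Hspa1a had 20.7, 25.2 and 30.3 FPKM in the HF-SC controls, 25.0, 37.5 and 49.1 in GFP cells and 26.2, 29.3 and 36.9 in Tom cells. In HF-SC GFP, mouse 814 had Hspa1b below and Hspa1a within the Co values, whereas mice 815 and 817 had both genes above all Co libraries. The log2 fold changes in HF-SC GFP were 0.50 (adjusted p = 0.123) for Hspa1a, with a 95% interval of -0.03 to 1.02, and 0.37 (adjusted p = 0.122) for Hspa1b, with an interval of -0.02 to 0.76. Without mouse 814 these became 0.75 (adjusted p = 0.0119) and 0.60 (adjusted p = 0.012), so that 1 mouse decided both calls. Without mouse 817 they became 0.28 (adjusted p = 0.274) and 0.16 (adjusted p = 0.368), so their size moved in both directions with the mouse left out. In HF-SC Tom the values were 0.27 (adjusted p = 0.393) and -0.19 (adjusted p = 0.412), on opposite sides of 0.

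In b-KCs, Hspa1b had 132, 148 and 144 FPKM in b-KC Co beside 109, 133 and 166 in the GFP and 123, 142 and 127 in the Tom fraction. Hspa1a had 29.5, 34.2 and 32.6 FPKM in the b-KC controls, 23.3, 27.8 and 38.1 in GFP cells and 16.2, 25.5 and 27.8 in Tom cells. The GFP libraries of both genes lay around the Co libraries, and the Tom libraries of Hspa1a lay below them. The log2 fold changes were -0.13 (adjusted p = 0.693) and -0.07 (adjusted p = 0.783) in b-KC GFP and -0.49 (adjusted p = 0.119) and -0.11 (adjusted p = 0.647) in b-KC Tom, for Hspa1a and Hspa1b in turn. Without mouse 817, the difference of Hspa1a in b-KC Tom passed the threshold (-0.63, adjusted p = 0.0186). Summed into 1 row, the pair had log2 fold changes between -0.17 and 0.40 against Co, with adjusted p from 0.116 to 0.757. The share of Hspa1a in that sum was 11.6% to 24.8% over the 18 libraries.

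Hspa8, the constitutive cytosolic Hsp70 (Hsc70, chromosome 9, 40609067 to 40613283), rose in b-KC GFP. Hspa8 in b-KCs had 725, 823 and 699 FPKM in b-KC Co beside 1276, 1118 and 1118 in the GFP and 834, 1001 and 1172 in the Tom fraction, and every DKO* library lay above every Co library. The log2 fold change was 0.64 ± 0.18 (SE, adjusted p = 0.00979) in b-KC GFP, a ratio of mean FPKM of 1.56, and 0.41 (adjusted p = 0.071) in b-KC Tom, which missed the threshold. The rise in b-KC GFP missed it without mouse 815 (adjusted p = 0.0565) and without mouse 828 (adjusted p = 0.0583), and the difference in b-KC Tom passed without mouse 814 (adjusted p = 0.0376) and without the mean-variance trend (adjusted p = 0.0314). In HF-SCs, Hspa8 had 751, 686 and 726 FPKM in the HF-SC controls, 811, 617 and 813 in GFP cells and 909, 872 and 744 in Tom cells, with overlapping groups and log2 fold changes of 0.04 (adjusted p = 0.878) and 0.22 (adjusted p = 0.337). Of its 51-base stretches, 75.5% occur at 11 other loci, and 3 small nucleolar RNA genes lie inside it. Of 8 further genes of the Hsp70 and Hsp110 families, 7 were tested, and Hspa4 and Hspa14 rose in all 4 populations while Hspa2 fell in all 4. Hspa4, an Hsp110 nucleotide exchange factor, had 31.6, 26.4 and 22.8 FPKM in HF-SC Co beside 70.8, 63.8 and 67.5 in the GFP and 63.97, 58.8 and 60.5 in the Tom fraction, and rose by 1.30 (adjusted p = 1.05e-06) and 1.16 (adjusted p = 2.5e-06) on the log2 scale, without overlap. Hspa2, known as the testis Hsp70 and found in keratinocytes, had 21.4, 20.8 and 17.4 FPKM in the b-KC controls, 4.23, 4.17 and 9.16 in GFP cells and 2.35, 3.15 and 4.67 in Tom cells, with log2 fold changes of -1.68 (adjusted p = 0.000148) and -2.28 (adjusted p = 6.52e-06). Hspa12b, an Hsp70 relative of endothelial cells, had 0.232, 0.364 and 0.223 FPKM in HF-SC Co beside 0.198, 0.152 and 0.0143 in the GFP and 3.31, 4.28 and 2.11 in the Tom fraction and passed the filter on low values only through HF-SC Tom, the population in which the endothelial markers rose, so its values are a description and its difference is no result of the test.

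Of the partners of Hsp70 among the 10 genes, Dnajb1 fell in all 4 populations and Hsph1 in HF-SC GFP. Dnajb1 (chromosome 8, 86132074 to 86135801), the inducible Hsp40 that feeds substrates to Hsp70, had 170.3, 158 and 168 FPKM in the HF-SC controls, 112, 96.2 and 143 in GFP cells and 85.2, 87.0 and 123 in Tom cells. Dnajb1 in b-KCs had 221, 225 and 221 FPKM in b-KC Co beside 146, 147 and 169 in the GFP and 86.7, 108 and 131 in the Tom fraction. The Co libraries stood above all DKO* libraries in both cell types, and in b-KCs each GFP library lay above each Tom library. The log2 fold changes were -0.52 ± 0.18 (SE, adjusted p = 0.0293) in GFP and -0.76 ± 0.18 (SE, adjusted p = 0.00256) in Tom HF-SCs, and -0.53 ± 0.18 (SE, adjusted p = 0.0259) in GFP and -1.04 ± 0.18 (SE, adjusted p = 0.000251) in Tom b-KCs, and the mean in b-KC Tom was 0.49 times that in Co. The fall in HF-SC GFP missed the threshold without each mouse but 817, with adjusted p from 0.0656 to 0.206, and that in b-KC GFP likewise, with adjusted p from 0.0665 to 0.118, whereas the falls in both Tom fractions held in every such fit. Hsph1 (chromosome 5, 150416862 to 150438951), an Hsp110, had 14.2, 16.5 and 15.6 FPKM in the HF-SC controls, 8.91, 8.55 and 11.7 in GFP cells and 10.1, 11.5 and 13.7 in Tom cells, and -0.63 ± 0.19 (SE, adjusted p = 0.0178) as its log2 fold change in GFP cells. That fall missed the threshold without mouse 814, 825 or 828, with adjusted p from 0.0629 to 0.0861. Hsph1 in b-KCs had 14.9, 13.8 and 13.2 FPKM in b-KC Co beside 10.4, 9.17 and 12.8 in the GFP and 10.5, 7.04 and 13.9 in the Tom fraction, and the differences in the other 3 populations, -0.37 in Tom HF-SCs and -0.35 and -0.42 in GFP and Tom b-KCs, had adjusted p from 0.085 to 0.156, and without mouse 817 all 3 passed, with adjusted p of 0.0126, 0.0136 and 0.00239.

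Of 13 other J-domain genes, all tested, 3 rose and 3 fell in GFP HF-SCs, 2 rose and 3 fell in Tom HF-SCs, 3 rose and 4 fell in GFP b-KCs, and 1 rose and 4 fell in Tom b-KCs. Of all genes, 18.5% to 22.6% rose and 20% to 23.3% fell in these 4 comparisons, so the counts of the J-domain genes, each of them 1 to 4 of 13, are given as a description and do not set the list apart. Dnaja4, Dnajb2 and Dnajb4 fell and Dnajc2 rose in all 4 populations. Dnaja4, a J-domain partner of cytosolic Hsp70, had 44.8, 44.9 and 44.1 FPKM in the HF-SC controls, 27.8, 28.1 and 25.0 in GFP cells and 20.2, 25.7 and 27.5 in Tom cells. Dnaja4 in b-KCs had 15.4, 16.8 and 17.2 FPKM in b-KC Co beside 8.92, 9.63 and 10.3 in the GFP and 5.53, 5.74 and 6.15 in the Tom fraction. The groups of Dnaja4 did not overlap between Co, GFP and Tom in b-KCs, and its log2 fold changes were -0.71 (adjusted p = 0.000164), -0.85 (adjusted p = 2.31e-05), -0.72 (adjusted p = 0.000234) and -1.36 (adjusted p = 5.81e-07) in GFP and Tom HF-SCs and then in GFP and Tom b-KCs. Dnajb2, which passes clients to the proteasome, fell by 1.57 (adjusted p = 1.68e-05) in HF-SC Tom and fell by 1.56 (adjusted p = 2.59e-05) in b-KC Tom on the log2 scale.

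Of the cytosolic Hsp90 genes, Hsp90aa1 rose in b-KC GFP, and Hsp90ab1 did not pass in any comparison with Co. Hsp90aa1 (chromosome 12, 111928815 to 111940938), the stress-inducible form, had 87.5, 84.3 and 91.8 FPKM in the b-KC controls, 129, 126 and 153 in GFP cells and 128, 115 and 157 in Tom cells, and each DKO* library lay above each Co library. The log2 fold change was 0.62 (adjusted p = 0.0432) in b-KC GFP and 0.58 (adjusted p = 0.0501) in b-KC Tom, on either side of the threshold. When mice entered the model as random blocks, the adjusted p in b-KC GFP was 0.0593, and it was 0.0721 to 0.104 in the fits without mouse 810, 814, 815, 825 or 828 and 0.0914 without the filter on low values. The difference in b-KC Tom passed with a pseudocount of 0.1 (adjusted p = 0.0483), with only the groups compared (adjusted p = 0.0069), without mouse 817 (adjusted p = 0.0463) and, barely, without the mean-variance trend. Hsp90aa1 in HF-SCs had 191, 116 and 135 FPKM in HF-SC Co beside 132, 97.8 and 136 in the GFP and 151, 136 and 77.5 in the Tom fraction, with overlapping groups, and the values were -0.25 (adjusted p = 0.416) and -0.30 (adjusted p = 0.314). Hsp90ab1 (chromosome 17, 45704724 to 45710220), the constitutive form, had 603, 596 and 565 FPKM in the b-KC controls, 818, 734 and 700.5 in GFP cells and 623, 726 and 769.8 in Tom cells, with log2 fold changes of 0.35 (adjusted p = 0.0531) and 0.26 (adjusted p = 0.136). The first of these passed without the trend (adjusted p = 0.022), without the filter (adjusted p = 0.0371), without mouse 817 (adjusted p = 0.0376) and, barely, with a pseudocount of 0.1 or with rescaled libraries. Hsp90ab1 in HF-SCs had 404, 334 and 374 FPKM in HF-SC Co beside 461, 404 and 416 in the GFP and 411, 399 and 407 in the Tom fraction, with log2 fold changes of 0.21 (adjusted p = 0.253) and 0.13 (adjusted p = 0.45). Hsp90aa1 shares 72.8% of its 51-base stretches with other loci and Hsp90ab1 7.85%. Of 17 co-chaperones of Hsp70 and Hsp90, 2 rose and 1 fell in each HF-SC fraction, 7 rose and 1 fell in b-KC GFP, and 7 rose and 2 fell in b-KC Tom, beside the 18.5% to 22.6% of all genes that rose and 20% to 23.3% that fell. Ptges3 (p23), which closes the Hsp90 cycle, and Stip1, which hands clients from Hsp70 to Hsp90, rose in all 4. Ptges3 had 94.0, 57.9 and 56.6 FPKM in the HF-SC controls, 129, 107 and 120.3 in GFP cells and 133, 110.3 and 85.2 in Tom cells and a log2 fold change of 0.80 (adjusted p = 0.00422) in HF-SC GFP. Hspbp1, a nucleotide exchange factor of Hsp70, had 32.9, 32.02 and 31.1 FPKM in b-KC Co beside 65.8, 61.0 and 53.6 in the GFP and 53.9, 66.3 and 67.3 in the Tom fraction and rose by 0.89 (adjusted p = 6.89e-05) and 0.94 (adjusted p = 2.43e-05) on the log2 scale. Bag4, which binds Hsp70 at its nucleotide-binding domain, fell in HF-SC Tom with a log2 fold change of -0.52 (adjusted p = 0.00258), a call that was lost in a fit of only the libraries compared (adjusted p = 0.0538).

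Hspb1 (Hsp25, chromosome 5, 136363789 to 136365433), the small heat shock protein that binds unfolded proteins and actin, had the lowest log2 fold change of the 10 genes in each of the 4 comparisons with Co. It had 668, 499 and 574 FPKM in the HF-SC controls, 245, 216 and 188 in GFP cells and 187, 218 and 171 in Tom cells. Hspb1 in b-KCs had 555, 405 and 449 FPKM in b-KC Co beside 291, 293 and 232 in the GFP and 49.8, 77.1 and 98.5 in the Tom fraction. No DKO* library reached the lowest Co library of its cell type, and the 3 b-KC Tom libraries were the lowest of all 18. The log2 fold changes were -1.42 ± 0.22 (SE, adjusted p = 0.000114) in GFP and -1.59 ± 0.22 (SE, adjusted p = 3.13e-05) in Tom HF-SCs, and -0.78 ± 0.22 (SE, adjusted p = 0.01) in GFP and -2.67 ± 0.22 (SE, adjusted p = 5.03e-07) in Tom b-KCs, which put the mean FPKM at 0.373, 0.331, 0.579 and 0.16 times that in Co. The fall in b-KC GFP missed the threshold without mouse 815 (adjusted p = 0.053), and the other 3 held without each mouse. Of its 51-base stretches, 62.7% occur at 1 other locus, that of the pseudogene Hsp25-ps1 on chromosome 13, so that part of the reads could be shared. The Hspb1 promoter is shown because it holds the pair GAANNTTC at 117 and 97 bases before the start site, printed in capitals from 140 to 71 bases before the start (RefSeq, GRCm38.p6), with 12 bases between the pairs:
Hspb1 (chr5:135887779-135887848, + strand): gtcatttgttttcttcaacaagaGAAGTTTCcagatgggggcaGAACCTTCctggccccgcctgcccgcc

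Cryab and Hspb8, which encode other small heat shock proteins, fell as well. Of 9 other genes listed with that family by symbol, 5 were tested, 1 of which (Hspb2) passed the filter on low values only through Co libraries and is not counted here. Of the other 4, Cryab and Hspb8 fell in all 4 populations. Hspb11, listed only for its symbol, fell in each HF-SC fraction, and none rose. Of all genes, 20% to 23.3% fell in these comparisons, and with 4 genes the counts are a description. Cryab, alphaB-crystallin, had 39.2, 35.1 and 36.3 FPKM in the HF-SC controls, 8.99, 10.0 and 8.42 in GFP cells and 3.86, 4.11 and 3.56 in Tom cells. Cryab in b-KCs had 5.58, 5.06 and 4.41 FPKM in b-KC Co beside 3.34, 2.03 and 1.34 in the GFP and 0.162, 0.465 and 0.542 in the Tom fraction. The groups did not overlap in either cell type, with Co highest and Tom lowest, and the log2 fold changes against Co were -1.90 (adjusted p = 1.21e-06), -2.97 (adjusted p = 1.55e-08), -0.94 (adjusted p = 0.00105) and -2.12 (adjusted p = 8.04e-07) in GFP and Tom HF-SCs and then in GFP and Tom b-KCs. With a pseudocount of 0.1 in place of 1, the log2 fold change of Cryab in b-KC Tom was -3.48 (adjusted p = 1.05e-06) and the log2 difference between GFP and Tom b-KCs 2.27 (adjusted p = 0.00109). Hspb8, which works with Bag3 in selective autophagy, had 88.8, 78.3 and 72.1 FPKM in the b-KC controls, 24.3, 28.3 and 35.2 in GFP cells and 7.71, 14.4 and 24.003 in Tom cells with log2 fold changes of -1.43 (adjusted p = 0.000965) and -2.43 (adjusted p = 8.68e-06). Hspb2, the neighbour of Cryab on chromosome 9, had 0.618 to 1.99 FPKM in the 6 Co libraries and 0 to 0.906 in the 12 DKO* libraries.

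Between the fractions of the same mice, Hspb1 was higher in GFP than in Tom b-KCs. The GFP level was 5.84, 3.80 and 2.35 times the Tom level in mice 814, 815 and 817, and the log2 difference was 1.89 ± 0.22 (SE, adjusted p = 0.000858). No other of the 10 genes was higher in b-KC GFP than in b-KC Tom by the adjusted p, where 1.19% of all genes were higher, and 0 were lower at either an adjusted or an unadjusted p under 0.05, where 0.518% of all genes were lower by the adjusted p. In a fit of only these 6 libraries the adjusted p was 0.073 without the mouse and 0.0216 with mice as fixed blocks, and without mouse 815 it was 0.0641. In HF-SCs the GFP level was 1.31, 0.987 and 1.10 times the Tom level in the same mice, and the log2 difference was 0.17 (adjusted p = 0.721). With limma 0 of the 10 genes passed between the HF-SC fractions, where 2.83% of all genes were higher and 5.8% lower, and at an unadjusted p under 0.05 only Hspa1b did. Cryab was higher in GFP in both cell types, by 1.06 (adjusted p = 0.000881) among HF-SCs and 1.18 (adjusted p = 0.00299) among b-KCs, of which the latter was lost without mouse 814 (0.83, adjusted p = 0.0799), without mouse 815 (1.25, adjusted p = 0.113), in the fit of only the libraries compared (adjusted p = 0.149) and with the fixed block (adjusted p = 0.0506). When mice entered the model of all libraries as random blocks, Dnajb1 was also higher in GFP b-KCs (0.52, adjusted p = 0.0343) and Hspa1b in GFP HF-SCs (0.57, adjusted p = 0.0168), whereas with the fixed block they had adjusted p of 0.102 and 0.158. Without 1 mouse they passed as well, Dnajb1 without mouse 817 (adjusted p = 0.0156) and Hspa1b without mouse 814 (adjusted p = 0.025). Between the b-KC fractions, none of the 14 endothelial, 8 bulge or 6 suprabasal markers passed with limma by the adjusted p, whereas at an unadjusted p under 0.05, 4 bulge and 1 suprabasal marker were higher in GFP, 0 endothelial markers passed, and none of the 3 lists had a lower gene. The bulge markers had a median log2 difference of 0.52 there, with 7 of 8 above 0, and the 22 immediate-early genes one of 0.51, with 20 above 0, 1 higher by the adjusted p and 8 higher and 1 lower by the unadjusted p, beside a median of -0.01 over all genes tested. Their part in the difference of Hspb1 was not tested.

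**Figure D3:**
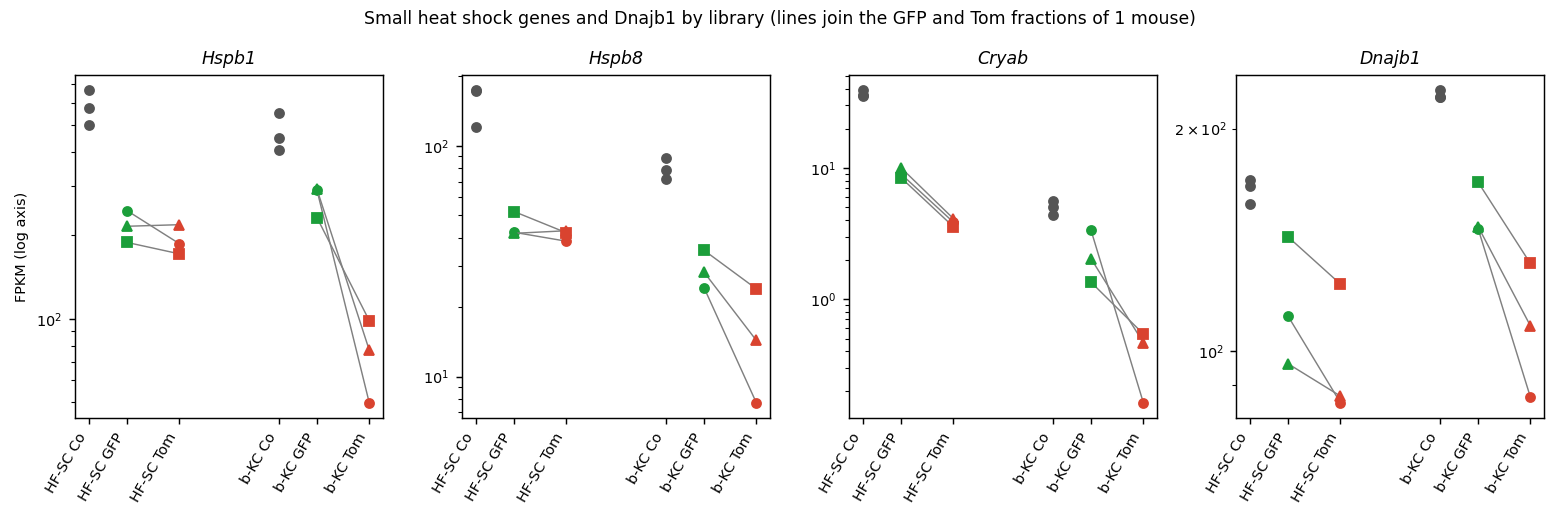
FPKM on log axes of Hspb1, Hspb8, Cryab and Dnajb1 in each library, with Co in grey, GFP in green and Tom in red, and lines that join the fractions of mouse 814 (circles), 815 (triangles) and 817 (squares). In b-KCs every line falls from GFP to Tom for all 4 genes, and in HF-SCs the lines of Hspb1 and Hspb8 are close to level.

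The fall of Hspb1 in Tom cells differed between the cell types. The change from Co to Tom was larger in b-KCs, with a log2 difference between the changes (HF-SC minus b-KC) of 1.08 ± 0.31 (SE, adjusted p = 0.0247), where 10.3% of all genes had a higher and 5.58% a lower difference. It missed the threshold without each mouse but 817, with adjusted p from 0.0669 to 0.153. For the change to GFP the difference was -0.63 (adjusted p = 0.19), and 0 of the 10 genes passed with limma there, where 7.31% of all genes were higher and 5.22% lower. At an unadjusted p under 0.05, 0 were higher and 2 lower (Hspa8 and Hsp90aa1). When mice entered the model as random blocks, Hspa1a (0.76, adjusted p = 0.0359) and Hsp90aa1 (-0.88, adjusted p = 0.0455) also passed for Tom. Of the changes that passed in 1 cell type only, the difference between the cell types did not pass for Hspa8 at -0.60 (adjusted p = 0.128), Hsp90aa1 at -0.87 (adjusted p = 0.0946), Hsph1 at -0.28 (adjusted p = 0.524) and Hspa5 at 0.04 (adjusted p = 0.917) in GFP cells. For Hsp90aa1 it passed without mouse 817 (adjusted p = 0.024) and with only the groups compared (adjusted p = 0.0389). In Tom cells Hspa5 also passed against Co in HF-SCs only, and its difference between the cell types did not pass there either.

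Hspd1 (Hsp60, chromosome 1, 55134679 to 55145087), the chaperonin of the mitochondrial matrix, rose in all 4 populations. It had 57.9, 50.3 and 53.2 FPKM in HF-SC Co beside 125, 101 and 120.3 in the GFP and 100.2, 92.6 and 120.4 in the Tom fraction. Hspd1 in b-KCs had 81.2, 84.8 and 76.3 FPKM in the b-KC controls, 148, 144 and 149 in GFP cells and 167, 130.1 and 162 in Tom cells. All DKO* libraries lay above all Co libraries of their cell type, and GFP and Tom overlapped. The log2 fold changes were 1.08 ± 0.13 (SE, adjusted p = 1.11e-05) in GFP and 0.94 ± 0.13 (SE, adjusted p = 3.56e-05) in Tom HF-SCs, and 0.86 ± 0.13 (SE, adjusted p = 0.000176) in GFP and 0.91 ± 0.13 (SE, adjusted p = 6.59e-05) in Tom b-KCs, ratios of mean FPKM of 2.15, 1.94, 1.82 and 1.89, and each held under every alternative at an adjusted p under 0.05 and without each mouse. Of the 51-base stretches of Hspd1, 57.9% occur at other loci, most of them at the pseudogene Gm12141 on chromosome 11. Hspe1, which encodes Hsp10, the lid of Hsp60, lies head to head with Hspd1 on the opposite strand and overlaps it by 112 bases, and reads from the overlap cannot be told apart in these unstranded libraries. Hspe1 had 53.3, 39.0 and 37.5 FPKM in HF-SC Co beside 98.8, 66.1 and 72.5 in the GFP and 140.1, 79.6 and 46.2 in the Tom fraction, with log2 fold changes of 0.85 (adjusted p = 0.027) and 0.89 (adjusted p = 0.0189). Hspe1 in b-KCs had 62.0, 56.6 and 59.5 FPKM in the b-KC controls, 183, 207 and 151 in GFP cells and 217, 194 and 173 in Tom cells, with log2 fold changes of 1.58 (adjusted p = 0.00065) and 1.69 (adjusted p = 0.000257). The rise of Hspe1 in HF-SC Tom missed the threshold without mouse 814, 815, 825 or 828, with adjusted p from 0.0759 to 0.108 and a log2 fold change that ranged from 0.50 without mouse 814 to 1.29 without mouse 817, and that in HF-SC GFP without mouse 815, 825 or 828, with adjusted p from 0.068 to 0.113. It was also lost without the filter on low values in HF-SC GFP (adjusted p = 0.0644) and with only the libraries compared in HF-SC Tom (adjusted p = 0.114). Hspe1 was chosen here after its values were seen, as the partner of Hspd1.

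The DNA at the start of Hspd1 and Hspe1 is shown because it holds a heat shock element that lies in the RefSeq promoter window of Hspe1 and in 1 of the 2 windows of Hspd1. The 30 bases below lie 95 to 66 bases before the Hspe1 start (RefSeq, GRCm38.p6), and capitals mark 2 overlapping matches of a motif of 3 units, GAANNTTC followed after 2 bases by GAA, which was searched on both strands, contains the pair above and occurs in 0.603% of 32851 promoters:
Hspe1 (chr1:55088053-55088082, + strand): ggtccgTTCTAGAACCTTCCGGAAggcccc
A match of these letters is a description of the sequence and not of binding. Of the 10 genes, 7 have a promoter in the RefSeq table. Among them Hsph1 holds the 3-unit motif downstream of its start, and the windows of Dnajb1 hold none of the motifs searched. The other arrangement of the pair, TTCNNGAA, was searched in the same way and occurs in 8.52% of promoters. It overlaps the 3-unit motif in Hspd1, Hspe1 and Hsph1, and Hsph1 also holds it before its start. Hspa8, Hsp90aa1 and Hsp90ab1 were not in the table.

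Most other chaperones of mitochondria and most subunits of the cytosolic chaperonin rose with Hspd1, where 18.5% to 22.6% of all genes rose. Clpb and Grpel2 did not pass in HF-SC Tom, and Cct4 passed in neither HF-SC fraction. Both lists were made with earlier results of these data known, so the counts are a description. All 8 further mitochondrial chaperones and proteases rose in HF-SC GFP and in both b-KC fractions, and 6 of 8 rose in HF-SC Tom. The medians of their log2 fold changes were 0.55 and 0.61 in GFP and Tom HF-SCs and 0.79 and 0.82 in GFP and Tom b-KCs. Hspa9, the mitochondrial Hsp70, had 106, 102 and 97.6 FPKM in HF-SC Co beside 221, 197 and 209 in the GFP and 165, 173 and 203 in the Tom fraction, and rose by 1.03 (adjusted p = 1.2e-05) in HF-SC GFP and 0.81 (adjusted p = 8.63e-05) in HF-SC Tom on the log2 scale. Trap1, the mitochondrial Hsp90, had 71.9, 73.2 and 72.5 FPKM in the b-KC controls, 138, 122 and 121 in GFP cells and 126, 128 and 137 in Tom cells, and rose by 0.80 (adjusted p = 4.42e-05) in b-KC GFP and 0.84 (adjusted p = 1.67e-05) in b-KC Tom. The DKO* libraries of both genes stayed above all Co libraries. Of the 8 subunits of TRiC, the cytosolic chaperonin that folds actin and tubulin, 7 rose in each HF-SC fraction and 8 in each b-KC fraction, and none fell, with medians of 0.70 and 0.76 for GFP and Tom HF-SCs and 0.78 and 0.86 for GFP and Tom b-KCs. Cct3, a TRiC subunit, had 175, 182 and 159 FPKM in b-KC Co beside 373, 343 and 282 in the GFP and 328, 338 and 347 in the Tom fraction, with log2 fold changes of 0.94 (adjusted p = 0.00015) and 0.97 (adjusted p = 6.59e-05), and Cct5, another, had 122, 109.6 and 112 FPKM in the HF-SC controls, 244, 183 and 184 in GFP cells and 254, 223 and 211 in Tom cells, with 0.81 (adjusted p = 0.000522) and 0.99 (adjusted p = 7.37e-05). None of the mitochondrial or TRiC genes passed between GFP and Tom with limma in either cell type. In HF-SC Co, 6 of the 8 mitochondrial genes and 5 of the 8 TRiC genes were lower than in b-KC Co.

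Hspa5 (BiP, chromosome 2, 34627490 to 34632051), the ER chaperone that also holds the sensors of the unfolded protein response, rose in both HF-SC fractions. It had 317, 276 and 249.4 FPKM in HF-SC Co beside 367, 350.2 and 415 in the GFP and 369, 355 and 395 in the Tom fraction. Hspa5 in b-KCs had 284, 307 and 296 FPKM in the b-KC controls, 353, 360.1 and 453 in GFP cells and 379, 295 and 437 in Tom cells. The HF-SC groups did not overlap with Co, the b-KC GFP libraries lay above Co, and 1 b-KC Tom library, that of mouse 815, lay within the Co values. The log2 fold changes were 0.43 ± 0.16 (SE, adjusted p = 0.0462) and 0.41 ± 0.16 (SE, adjusted p = 0.0476) in HF-SC GFP and Tom, and 0.39 (adjusted p = 0.0659) and 0.31 (adjusted p = 0.131) in b-KC GFP and Tom, which did not pass, except that the first had an adjusted p of 0.0488 without the trend. The HF-SC calls stood close to the threshold: without the filter on low values the adjusted p were 0.0507 and 0.0503, with only the libraries compared 0.081 and 0.129, and they were lost in HF-SC GFP without each mouse but 810 (0.0598 to 0.199) and in HF-SC Tom without mouse 814, 815, 825 or 828 (0.0894 to 0.2). No 51-base stretch of Hspa5 has an exact match elsewhere in the genome, and matches with mismatches were not searched. Its promoter is shown because it holds the ER stress element, CCAAT and CCACG with 9 bases between them, which was searched on both strands and occurs in 0.119% of 32851 promoters, in capitals from 85 to 31 bases before the start (RefSeq, GRCm38.p6):
Hspa5 (chr2:34772005-34772059, + strand): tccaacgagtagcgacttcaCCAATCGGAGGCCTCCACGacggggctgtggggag
The same promoter holds the AP-1 letters TGANTCA, searched on both strands and present in 7.81% of promoters, at 182 bases before the start, the only match to them among the members in the table.

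Of 16 other ER chaperones and folding enzymes, 8 rose and 1 fell in each HF-SC fraction, and 11 rose and 1 fell in each b-KC fraction, and the gene that fell was Serpinh1 each time. In the same comparisons, 18.5% to 22.6% of all genes rose and 20% to 23.3% fell. P4hb, a protein disulfide isomerase, had 174, 159.7 and 171 FPKM in HF-SC Co beside 348, 308 and 275 in the GFP and 315, 290.5 and 297 in the Tom fraction, with log2 fold changes of 0.87 (adjusted p = 0.000284) and 0.83 (adjusted p = 0.000339). Sdf2l1, a partner of BiP, had 21.5, 16.8 and 15.03 FPKM in the b-KC controls, 42.8, 39.8 and 35.3 in GFP cells and 25.0, 33.7 and 39.0 in Tom cells, with log2 fold changes of 1.11 (adjusted p = 0.000176) and 0.83 (adjusted p = 0.00104). Manf, a secreted ER stress protein, rose in HF-SC Tom by 1.04 (adjusted p = 0.000253). Serpinh1 (Hsp47), the chaperone of collagen, had 63.1, 107 and 106 FPKM in HF-SC Co beside 30.2, 35.8 and 35.2 in the GFP and 49.5, 48.7 and 47.2 in the Tom fraction, with log2 fold changes of -1.38 (adjusted p = 5.62e-05) and -0.87 (adjusted p = 0.00216). Among 13 sensors, factors and targets of the unfolded protein response, 4 rose and none fell in each HF-SC fraction with limma (at an unadjusted p under 0.05, 1 fell in HF-SC GFP and 0 in HF-SC Tom), 3 rose and 3 fell in b-KC GFP, and 2 rose and 4 fell in b-KC Tom. The 4 that fell in b-KC Tom were Atf6, Ddit3, Ppp1r15a and Sel1l. Of all genes, 18.5% to 22.6% rose and 20% to 23.3% fell in these comparisons, so the counts are a description. Asns, asparagine synthetase and a target of Atf4, rose in all 4, with 23.97, 22.8 and 20.3 FPKM in the HF-SC controls, 75.0, 58.6 and 64.8 in GFP cells and 83.9, 71.1 and 76.4 in Tom cells and log2 fold changes of 1.52 (adjusted p = 1.68e-07) and 1.74 (adjusted p = 3.11e-08). Of fibroblast markers, whose cells make collagen, 5 of 6 were tested, of which 1 (Col1a2) fell in HF-SC Tom and none in HF-SC GFP with limma, with a summed level of 19.4 to 120.5 FPKM in HF-SC GFP, 13.9 to 114.9 in HF-SC Tom and 45.9 to 95.5 in HF-SC Co; their part in the fall of Serpinh1 was not tested.

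**Figure D4:**
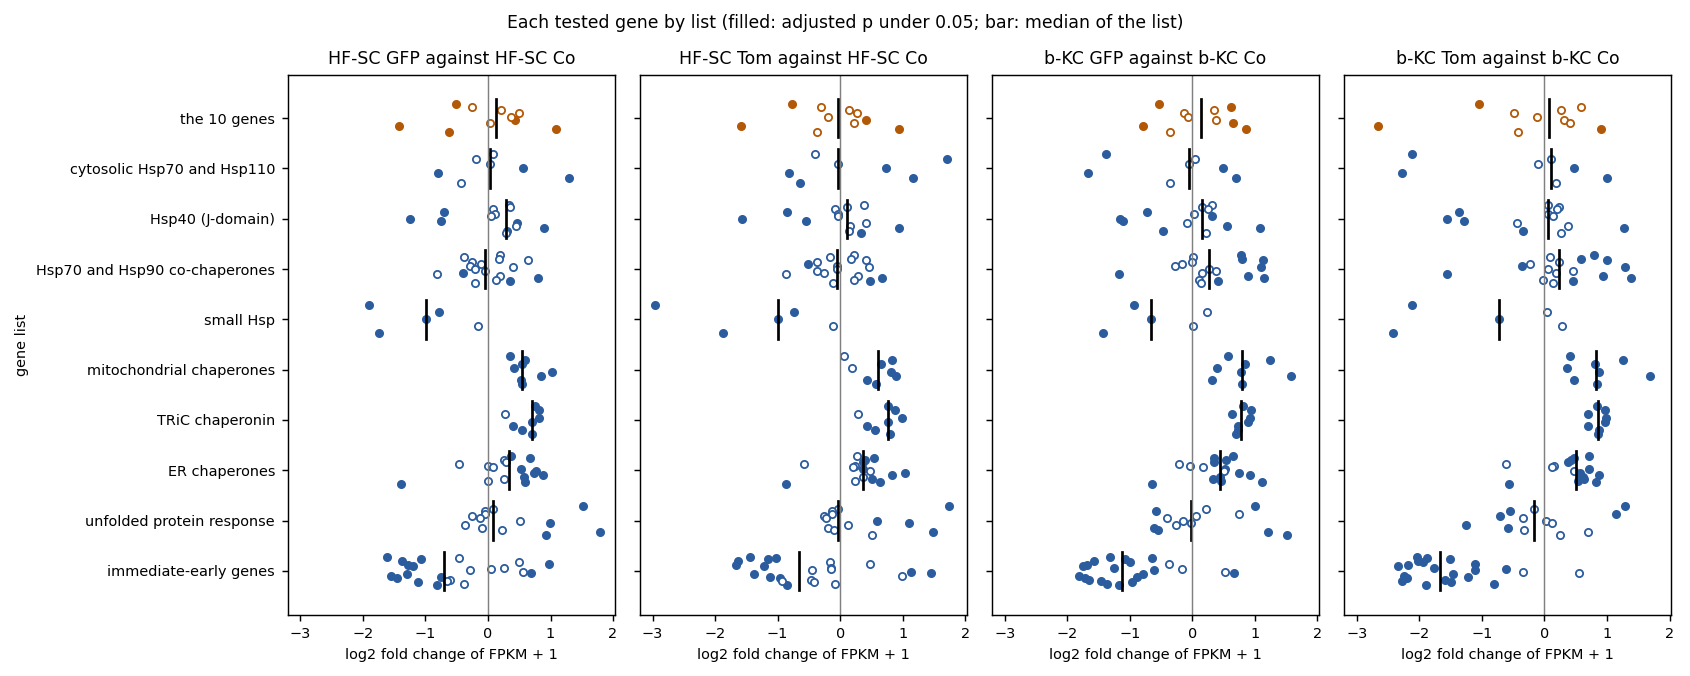
Log2 fold change of FPKM + 1 against Co of each tested gene of the 10 genes (orange) and of 9 related lists (blue), 1 panel a comparison; filled points have an adjusted p under 0.05 and bars mark the median of a list. Mitochondrial chaperones and TRiC subunits lie above 0 in every panel, small heat shock and immediate-early genes lie mostly below 0, and the 10 genes spread on both sides.

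The other lists had medians on both sides of 0, given here for GFP and Tom HF-SCs and then GFP and Tom b-KCs. They were -0.99, -0.99, -0.66 and -0.73 for the small heat shock genes, with Hspb2 and Hspb11 among the genes they cover, and -0.70, -0.66, -1.13 and -1.68 for the immediate-early genes. They were 0.33, 0.37, 0.45 and 0.51 for the ER chaperones and 0.28, 0.11, 0.15 and 0.06 for the J-domain genes. Nearer to 0 lay the co-chaperones (-0.05, -0.04, 0.27 and 0.23), the further Hsp70 and Hsp110 genes, Hspa12b included (0.04, -0.03, -0.05 and 0.10) and the unfolded protein response (0.08, -0.03, -0.03 and -0.16), where the medians of all genes tested were -0.05 to -0.02.

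Hsf1, the transcription factor of the heat shock response, had 26.8, 24.4 and 21.7 FPKM in HF-SC Co beside 14.4, 15.1 and 15.2 in the GFP and 12.0, 14.9 and 18.9 in the Tom fraction. It fell in both fractions without overlap with Co, with log2 fold changes of -0.66 (adjusted p = 0.0066) in HF-SC GFP and -0.65 (adjusted p = 0.00655) in HF-SC Tom. Hsf1 in b-KCs had 21.9, 22.6 and 21.5 FPKM in the b-KC controls, 15.6, 16.5 and 20.1 in GFP cells and 13.3, 16.002 and 22.1 in Tom cells, with log2 fold changes of -0.33 (adjusted p = 0.136) and -0.37 (adjusted p = 0.0883). The level of this transcript does not measure the activity of the protein. Hsf2 and Hsbp1 did not pass in any of the 4 comparisons, and Hsf4 did not pass the filter on low values. Immediate-early genes respond quickly to growth factors, stress and dissociation. Jun and Junb were left out of the list of 22 used here, which also holds their relative Jund. Of the 22, 11 fell and 2 rose in GFP HF-SCs, and 10 fell and 2 rose in Tom HF-SCs. In GFP b-KCs 18 fell and 1 rose, and in Tom b-KCs 20 fell and none rose with limma, where 1 rose at an unadjusted p under 0.05. Of all genes, 18.5% to 22.6% rose and 20% to 23.3% fell in these comparisons. Jund, the AP-1 relative of Jun, had 145, 116 and 119.9 FPKM in HF-SC Co beside 40.3, 56.9 and 57.1 in the GFP and 41.4, 47.4 and 56.1 in the Tom fraction, with log2 fold changes of -1.30 (adjusted p = 0.000649) and -1.38 (adjusted p = 0.000322). Btg2 had 255, 252 and 254 FPKM in the b-KC controls, 123, 159.8 and 214 in GFP cells and 55.1, 72.3 and 80.2 in Tom cells, with a log2 fold change of -1.88 (adjusted p = 6.59e-06) in b-KC Tom. Socs3, a feedback inhibitor of cytokine signalling, had a log2 fold change of -1.37 (adjusted p = 9.79e-05) in b-KC GFP. Ier5, an immediate-early gene known as a regulator of Hsf1, rose in HF-SC Tom by 1.45 (adjusted p = 0.000155), with 32.5, 33.5 and 15.6 FPKM beside 9.57, 8.97 and 7.86 in HF-SC Co.

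The 10 genes did not move as 1 block over the 18 libraries, which come from 6 mice and share the differences between the groups. Pearson's r of log2(FPKM + 1) over the 18 libraries was 0.62 for Hspa1a and Hspa1b, 0.78 for Hspd1 and Hspa5, 0.76 for Hspa8 and Hsp90ab1, and 0.71 for Hspb1 and Dnajb1. Hspb1 and Hspd1 ran in opposite directions (r = -0.78), and r was -0.00167 for Hsp90aa1 and Hsp90ab1. The tested genes most like the sum of Hspa1a and Hspa1b were Notch1 (r = 0.87), Usp38 (0.81), Sos1 (0.81), Slc19a2 (0.79) and Kremen2 (0.79), and those most like Hspa5 were Eif3a (0.91), Spata5 (0.89), Ncl (0.87), Noc3l (0.86) and Abce1 (0.85). Chosen after the values were seen, the gene most like Hspd1 was Hspa9 (r = 0.98) and that most like Hspb1 was Pthlh (r = 0.95). These values describe the 18 libraries and are given without a test.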

How the data were processed

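Gene levels were measured by RNA sequencing of 18 libraries of sorted ear skin cells (6 groups of 3 mice). Libraries were made by the authors with SMART-Seq v4 and Nextera XT, which do not mark the strand, and sequenced as single reads of 51 bases. Per the methods, reads were aligned to mm9 with TopHat 2.0.10 and Bowtie 1.0.0 with up to 2 mismatches and 20 alignments a read, and quantified with Cufflinks, for which the submitters' processing notes give version 2.2.1. The notes also name GRCm38 and mm10, and the table has no coordinates. The deposited values are FPKM per gene, as the authors made them. The authors' test ran on read data not used here.

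The test was that of limma 3.58.1 (R 4.3.3) on log2(FPKM + 1), over the 12751 of 23951 genes that reached 1 FPKM in 3 or more libraries, with 1 mean per group, all 18 libraries in the fit, a mean-variance trend and Benjamini-Hochberg adjustment over the genes tested. The 9 contrasts included the differences between the cell types in the change to GFP and to Tom. Alternatives were a pseudocount of 0.1, no filter, no trend, rescaled libraries, only the groups compared, the mouse as a random or fixed block, the sum of Hspa1a and Hspa1b, a stricter rule (adjusted p under 0.01, log2 fold change of at least 2) and leaving out each mouse. The labels give the mouse of each library, so libraries of 1 mouse are paired. The correlation of their deviations from the group means was 0.0838 to 0.7, and the correlation within mice in the random block was 0.274. The GFP and Tom groups of both cell types share their mice, which the fit without a block ignores.

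Depth was read from the steps of low FPKM values over 7148 genes with 1 transcript, where 77.1% to 80.7% of values lay within 0.1 of a whole read. It came to 16560000 to 26320000 reads a library, which is an estimate, and counts were not recovered for most genes. In simulated data for HF-SC GFP against HF-SC Co over 12751 genes, 13 of 67 genes changed by a log2 value of 0.5 were recovered. So were 44 of 67 changed by 1 and 63 of 66 changed by 2, with 9 false calls among 12551 unchanged genes. Far more genes passed in the real comparison, so these rates do not carry over to it.

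The members and the lists were chosen with earlier results of these data known. From each related list, the gene with the smallest adjusted p in each comparison with Co was named where it was under 0.05, besides Hsf1, Jun and Junb, and likeness was measured by Pearson's r. Gene coordinates are from GENCODE for NCBIM37 (mm9), and stretches of 51 bases of each transcript were searched in that genome for exact matches only. Reads were aligned with up to 2 mismatches, so more reads could be shared than these percentages show. Promoters are from RefSeq for GRCm38.p6, a different build, and 7 of the 10 genes were matched. Values and figures were handled with Python 3.11.15, pandas 2.3.3, numpy 2.4.6 and matplotlib 3.10.9.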

Additional observations from a re-analysis of the deposited data

Results flagged for a closer look

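For 7 of 33 genes examined, the 10 genes and those named from the related lists other than Hspa12b, the change from Co to GFP or Tom was not the same in both cell types, by limma's test of the difference between the changes (HF-SC minus b-KC, log2, Benjamini-Hochberg adjusted). The latter were named for the smallest adjusted p of their list in a comparison with Co, a choice that favours genes whose change differs between the cell types, so their number is a description. For the change to GFP, 4 of 26 genes passed, where 7.31% of all genes had a higher and 5.22% a lower difference, and for the change to Tom 5 of 26, where 10.3% had a higher and 5.58% a lower one. For the change to GFP, the difference was -0.966 for Cryab (adjusted p = 0.0215), -0.698 for Hspbp1 (adjusted p = 0.0129), 0.608 for Hspa4 (adjusted p = 0.03) and 0.982 for Socs3 (adjusted p = 0.027). For the change to Tom, it was -0.846 for Cryab (adjusted p = 0.0343), -0.652 for Hspbp1 (adjusted p = 0.0151), 0.508 for Dnaja4 (adjusted p = 0.0401), 1.08 for Hspb1 (adjusted p = 0.0247) and 1.46 for Hspa2 (adjusted p = 0.00989). Cryab and Hspbp1 were on the list for both fractions, which share their Co libraries. The direction of the Cryab difference for Tom rests on the pseudocount, since with 0.1 in place of 1 it was 0.252 (adjusted p = 0.766), on the other side of 0, and that for GFP was -0.787 and did not pass (adjusted p = 0.25). Cryab had 4.41 to 5.58 FPKM in b-KC Co. Without the filter on low values, those of Socs3 for GFP (adjusted p = 0.0546) and Cryab for Tom (adjusted p = 0.0564) did not pass, nor did that of Dnaja4 for Tom with only the groups compared (adjusted p = 0.0719). Each of these 9 differences missed the threshold without at least 1 mouse. Hspa12b, left out of these counts, passed the filter only through the HF-SC Tom libraries, so its difference for Tom of 1.60 is a description and no result of the test. It was under 0.4 FPKM in every group but HF-SC Tom, where endothelial markers also rose, and the part of those markers in its value was not tested. Groups of 3 libraries were not examined for single outlying libraries.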

How the results depend on the processing

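Of 93 log2 fold changes and differences followed under 1207 alternative values, 1104 kept their direction and side of the threshold, 96 lost the call, 4 gained one and 3 changed sign. With a pseudocount of 0.1, the difference of Cryab between the cell types in the change to Tom turned from -0.846 to 0.252. The sign also changed for Hspa1a and Hspa1b in b-KC GFP, from -0.13 and -0.07 to 0.0222 and 0.0764 without mouse 814 (ranges over the mice left out -0.321 to 0.0222 and -0.225 to 0.0764), and neither passed the test. Counts of the 10 genes that moved by over 1.5 times were as follows. By the stricter rule, 0 rose against Co in any population, 0 fell but for 1 in b-KC Tom, and 0 passed in the other comparisons with limma; 9 of the 10 changed by less than the fold it asks for. Without the filter, 1 rose in each HF-SC fraction. With only the groups compared, 1 rose in each HF-SC fraction and 2 in b-KC Tom, 0 were higher in b-KC GFP than in b-KC Tom, 4 were lower in HF-SC Co than in b-KC Co, and 1 had a lower change to GFP in HF-SC. Without the trend, 5 rose in GFP and 3 in Tom b-KCs, and with a pseudocount of 0.1, 2 rose in b-KC Tom. With the mouse as a random replicate block, 1 was higher in GFP than in Tom HF-SCs, 2 in b-KCs, and 2 had a higher and 1 a lower change to Tom in HF-SC; with it as a fixed block, 5 were lower in HF-SC Co than in b-KC Co. The block changed no other call of the 10 genes than those named in the text. Leaving out each mouse gave 1 to 3 higher and 1 to 3 lower in HF-SC GFP, 1 to 2 and 2 to 3 in HF-SC Tom, 1 to 4 and 0 to 3 in b-KC GFP, 1 to 2 and 2 to 4 in b-KC Tom, 0 to 1 higher in GFP than in Tom HF-SCs, 0 to 2 in b-KCs, 0 to 1 higher and 2 to 3 lower in HF-SC Co than in b-KC Co, 0 to 1 with a lower change to GFP and 0 to 1 with a higher change to Tom. Over all genes, the 361 higher in GFP than in Tom HF-SCs became 715 with the random block, 148 with the fixed block, 62 with only the groups compared, and 67, 41 and 1496 without mice 814, 815 and 817, and the 739 lower ones became 1014, 481, 313, 420, 383 and 1426. In b-KCs, the 152 higher became 412, 371, 1, 18, 1 and 618 and the 66 lower 202, 103, 2, 10, 0 and 232 in the same order, and 86 and 80 higher and 38 and 35 lower were called without mice 825 and 828, beside 238 higher with a pseudocount of 0.1 and 100 without the filter. Against Co, leaving out mouse 815 moved the 2588 higher and 2713 lower genes of b-KC GFP to 1322 and 1290, the 2881 and 2976 of b-KC Tom to 1890 and 1932, and the 2545 lower genes of HF-SC GFP to 1581, and without mouse 828 the lower genes of b-KC GFP were 1717. Between the cell types, the 932 higher and 665 lower differences for GFP ranged from 276 and 151 without mouse 815 to 2008 and 1913 without mouse 817, and the 1307 and 712 for Tom from 651 and 247 to 2006 and 1237 without the same mice, so the shares of all genes given beside those differences move with the mice too. The cause of these differences was not tested. With 3 mice a group, changes of 0.5 on the log2 scale were mostly missed in simulated data. There, 12551 of 12751 genes were unchanged, whereas 2364 rose and 2545 fell in the real HF-SC GFP comparison. The adjusted threshold was therefore stricter in the simulation, and its recovery is not that of the real data. A gene that did not pass is still not shown to be unchanged.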
